A study of Mus musculus with 36 samples.

Results

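Solute carriers are membrane proteins that move ions, nutrients and metabolites across the plasma membrane and the membranes of organelles. The genes described here are those whose symbol begins with Slc and a number or with Slco, without Slc7a11, and that have a listed peak in at least 1 of 3 histone modification tables. There were 102 such genes with 141 peaks, out of 9822 genes with 13958 peaks in the 3 tables. H3K9ac, an acetylation of histone H3 found at active promoters and enhancers, had 95 peaks in 71 of these genes, out of 8115 peaks in 5911 genes. H3K9me3, a methylation of the same lysine found in silent heterochromatin, had 43 peaks in 34 of them, out of 5374 peaks in 3951 genes. H3K4me3, a methylation found at the start sites of active genes, had 3 peaks in 3 of them, out of 469 peaks in 456 genes. 1 of the 102 genes, Slc7a6os, carries a solute carrier symbol because it overlaps Slc7a6 but does not encode a carrier.

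Primary aortic smooth muscle cells came from mice lacking cystathionine gamma-lyase in the whole body (CSE KO) and from C57BL/6N mice (CSE WT). Cells of both genotypes had been given angiotensin II at 1 µM for 24 h, so no untreated cells were compared. For each genotype and mark there were 3 immunoprecipitated and 3 input libraries, 36 in all. Cystathionine gamma-lyase, the product of Cth, makes hydrogen sulfide, and angiotensin II is a peptide that constricts vessels. The labels do not say whether the libraries came from separate animals or cultures, so a p-value may measure technical spread only.

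The carriers are numbered by family, and members of a family share sequence and often the kind of solute. Families Slc1, Slc7 and Slc38 carry amino acids, Slc2 and Slc5 sugars and vitamins, Slc25 metabolites across the inner mitochondrial membrane, Slc30 and Slc39 zinc and other metals, and Slco organic anions. In vascular smooth muscle, the Slc9 sodium-proton exchangers set the pH of the cell and the Slc12 cation-chloride cotransporters its chloride and volume, and both bear on contraction and growth.

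The tables give 1 value per genotype and peak for H3K9ac and H3K9me3 and none per library, so no SD can be given, and depth per library is unknown. Values are printed here as normalised reads per peak, which is 2 raised to the deposited log2 value, and a fold is CSE KO over CSE WT or its inverse. The lists hold peaks chosen by the authors at p under 0.05, and no listed p was under 0.0001. Peaks of smaller p may be missing, and the sources used here do not say why none is listed. A carrier without a listed peak is therefore not shown to be equal in both genotypes, and could be among the most changed. Of 10 smooth muscle markers, 7 had a listed H3K9ac peak, with 5.17 to 1438 reads in CSE KO and 17.9 to 2504 in CSE WT over 12 peaks, of which 2 were higher and 10 lower in CSE KO. Of 5 leukocyte markers, Cd14 and Aif1 were listed, with 3 peaks of 17.5 to 1296 reads in CSE KO and 5.78 to 724 in CSE WT, all higher in CSE KO. Listed markers also numbered 2 of 6 for endothelium, 2 of 5 for fibroblasts and 1 of 4 for adipocytes. Endothelial markers had 1 peak higher and 1 lower in CSE KO, fibroblast markers 1 higher and 1 lower, and adipocyte markers 0 higher and 1 lower. Over all listed H3K9ac peaks 77.2% were lower in CSE KO, and 18.1% of protein-coding genes had a listed peak. A change in the share of a cell type and a change within cells cannot be told apart in such bulk samples, and the part of other cell types in the carrier results was not tested. Cth itself had 0 listed peaks in all 3 tables, so these files do not check the knockout.

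H3K9ac peaks of solute carriers were mostly lower in CSE KO, in a proportion close to that of all listed peaks. In CSE KO, 21 were higher and 74 lower, or 77.9% lower, against 77.2% of all listed H3K9ac peaks. Counting each gene once by its peak of smallest p, 14 genes were higher and 57 lower in CSE KO, 80.3% lower against 75.8% of all listed genes. The median difference was 2.38-fold for peaks higher in CSE KO and 2.21-fold for those lower, close to the 2.50-fold and 2.19-fold of all listed peaks. At the authors' FDR under 0.05, 16 carrier peaks in 15 genes were called, 5 higher and 11 lower in CSE KO, or 16.8% of 95. Of all listed H3K9ac peaks 16.6% were called at that FDR, 325 higher and 1019 lower, and the carriers' shares of lower peaks and of calls both lie close to these. No listed p was under 0.0001, so stronger calls may be missing from both counts. The shares of calls given here and below are shares of the listed peaks only. Slc44a2 at an FDR of 0.0498 was the last carrier inside that threshold in the authors' deposited table, and Slc9a2 at 0.0508 the first outside it.

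How much H3K9ac a peak held went with how large its fold was. The 16 carrier peaks with a log2 signal under 4 had a median difference of 4.33-fold, the 79 at 4 or more one of 2.08-fold, and the 13 at 7 or more one of 1.78-fold. Over the 95 peaks, Spearman's rho between log2 signal and the size of the log2 fold change was -0.779. Over all 8115 listed peaks it was -0.771, and both values are over peaks already selected by p. The 3 largest folds, at Slc36a1, Slc10a1 and Slc38a2, all stood on peaks of few reads.

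**Figure D1:**
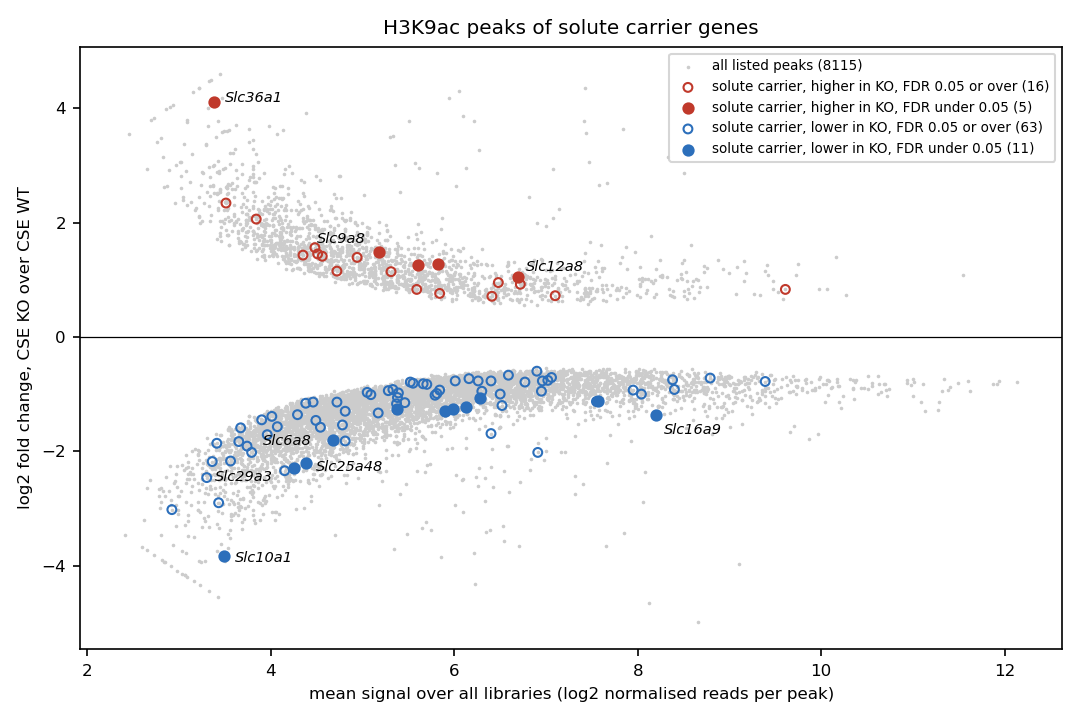
H3K9ac peaks of solute carrier genes over all listed peaks. The x axis is the deposited mean signal over all libraries (log2 normalised reads per peak), and the y axis the log2 fold change of CSE KO over CSE WT. Filled circles are the 16 carrier peaks with an FDR under 0.05 (5 higher, 11 lower in CSE KO), open circles the other 79, and grey dots the 8115 listed peaks. Carrier peaks spread over the same funnel as the rest, with the largest differences at low signal.

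Among carriers of protons and of cations with chloride, peaks of both directions were listed. Slc9a8 encodes a sodium-proton exchanger of the Golgi and of apical membranes. An intergenic peak 18.1 kb from its start site, chr2:167403012-167403629, had 53.4 reads in CSE KO and 19 in CSE WT in the authors' deposited table, and rose 2.81-fold (p = 0.000901, FDR 0.0299). The start-site peak of Slc9a2, an epithelial sodium-proton exchanger, was lower in CSE KO, with 118 reads in CSE KO and 258 in CSE WT in the authors' deposited table (2.19-fold, p = 0.00201, FDR 0.0508).

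Slc12a8, an orphan member of the cation-chloride family that has been described as a nicotinamide mononucleotide carrier in mouse gut, had 3 peaks, all in intron 5 and all higher in CSE KO. The peak at chr16:33562590-33564046 had 139 reads in CSE KO and 67.6 in CSE WT in the authors' deposited table, and rose 2.06-fold (p = 0.00142, FDR 0.0403). The other peaks had 105 and 72 reads in CSE KO against 64.4 and 42.5 in CSE WT in the authors' deposited table, with FDRs of 0.217 and 0.262. These were the only listed H3K9ac carrier peaks on chromosome 16, where 59% of all listed H3K9ac peaks were lower in CSE KO. No carrier other than Slc12a8 had several H3K9ac peaks that were all higher. Slc12a3, the thiazide-sensitive sodium-chloride cotransporter of the kidney, had 34.3 reads in CSE KO and 12.8 in CSE WT at its start-site peak in the authors' deposited table (FDR 0.301). Slc12a7, a potassium-chloride cotransporter, had 37.8 reads in CSE KO and 75.1 in CSE WT at an intergenic peak in the authors' deposited table (FDR 0.205). The Slc12 family had 4 peaks higher and 1 lower in CSE KO, with 1 past the FDR, from 3 of 9 genes. Of the 4 higher peaks 3 were those of Slc12a8. Over all listed H3K9ac peaks 77.2% were lower and 16.6% passed.

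Among bicarbonate and anion exchangers, 2 peaks were higher and 2 lower in CSE KO and none of the 4 passed the FDR. Over all listed H3K9ac peaks 77.2% were lower and 16.6% passed. Slc4a7, a sodium-bicarbonate cotransporter found in vascular smooth muscle, had 33.4 reads in CSE KO and 11.3 in CSE WT at a peak in intron 1 in the authors' deposited table (2.95-fold higher, FDR 0.091). Slc4a9 had 54.6 reads in CSE KO and 24.8 in CSE WT at a promoter peak in the authors' deposited table (FDR 0.0847). Lower in CSE KO were Slc4a5, a sodium-bicarbonate cotransporter, at 2.99-fold and Slc26a10 at 3.23-fold in the authors' deposited table. Their FDRs were 0.152 and 0.258, and the Slc26a10 peak also overlaps the gene B4galnt1 in RefSeq.

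Amino acid carriers made the largest group, with 20 H3K9ac peaks in 12 genes of the 42 in RefSeq. In CSE KO 5 peaks were higher and 15 lower, 3 past the FDR, with a median log2 fold change of -0.88. Over all listed H3K9ac peaks 77.2% were lower and 16.6% passed, and 18.1% of protein-coding genes had a listed peak. The group counts Slc7a6os. Slc36a1, which carries small amino acids together with protons, had the largest H3K9ac fold of any listed carrier. Its peak at chr11:55248057-55248353, 34.3 kb from the start site and past the gene's end, had 19.6 reads in CSE KO and 1.15 in CSE WT in the authors' deposited table, and rose 17.1-fold (p = 0.000116, FDR 0.00699). Slc7a6, a subunit that exchanges arginine and neutral amino acids, was lower at a peak of chr8:106163860-106164875, with 34.3 reads in CSE KO and 85 in CSE WT in the authors' deposited table (2.46-fold, FDR 0.00943). That peak lies outside Slc7a6 and inside the neighbouring gene Pla2g15 in RefSeq. A peak inside Slc7a6 had 33.6 reads in CSE KO and 58.1 in CSE WT in the authors' deposited table (FDR 0.289). Beside it, Slc7a6os had 41.6 reads in CSE KO and 98.4 in CSE WT at chr8:106200479-106201549 in the authors' deposited table (2.35-fold lower, FDR 0.0376).

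Slc38a1 and Slc38a2 encode glutamine and neutral amino acid carriers and lie next to each other on chromosome 15. Slc38a1 had the most H3K9ac peaks of any carrier, 6, of which the 4 inside the gene were higher and the 2 beyond its end lower in CSE KO. At the start site Slc38a1 had 996 reads in CSE KO and 560 in CSE WT in the authors' deposited table (1.78-fold, p = 0.0479, FDR 0.317), the highest H3K9ac level among the listed carrier peaks in CSE KO. A peak in exon 5, 50.8 kb into the gene, had 44.6 reads in CSE KO and 16.9 in CSE WT in the authors' deposited table (2.62-fold higher, p = 0.00306, FDR 0.0659). Neighbouring peaks in intron 4 had 33.4 and 23.1 reads in CSE KO against 12.1 and 5.54 in CSE WT in the authors' deposited table, with FDRs of 0.126 and 0.14. Beyond the gene's end, 95.2 and 100 kb from the start, the values were 62.2 and 92.4 reads in CSE KO against 106 and 156 in CSE WT in the authors' deposited table, with FDRs of 0.139 and 0.196. So no Slc38a1 peak passed the FDR, and the direction followed position along the gene.

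In Slc38a2, 47 to 47.6 kb on the other side of the Slc38a1 start, both peaks were lower. The values were 22.5 and 1.66 reads in CSE KO against 44 and 13.5 in CSE WT in the authors' deposited table, with FDRs of 0.284 and 0.21. Slc38a4, another carrier of the same cluster, had 26.9 reads in CSE KO and 56.1 in CSE WT in the authors' deposited table (FDR 0.194). Slc43a1, a carrier of large neutral amino acids, had 170 reads in CSE KO and 324 in CSE WT at its start site in the authors' deposited table (1.91-fold lower, FDR 0.132). The arginine carrier Slc7a1 and its relative Slc7a2 were lower 4.06-fold and 1.64-fold in the authors' deposited table, with FDRs of 0.19 and 0.227. They were picked after their values were seen, because arginine feeds nitric oxide synthesis in vessels.

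**Figure D2:**
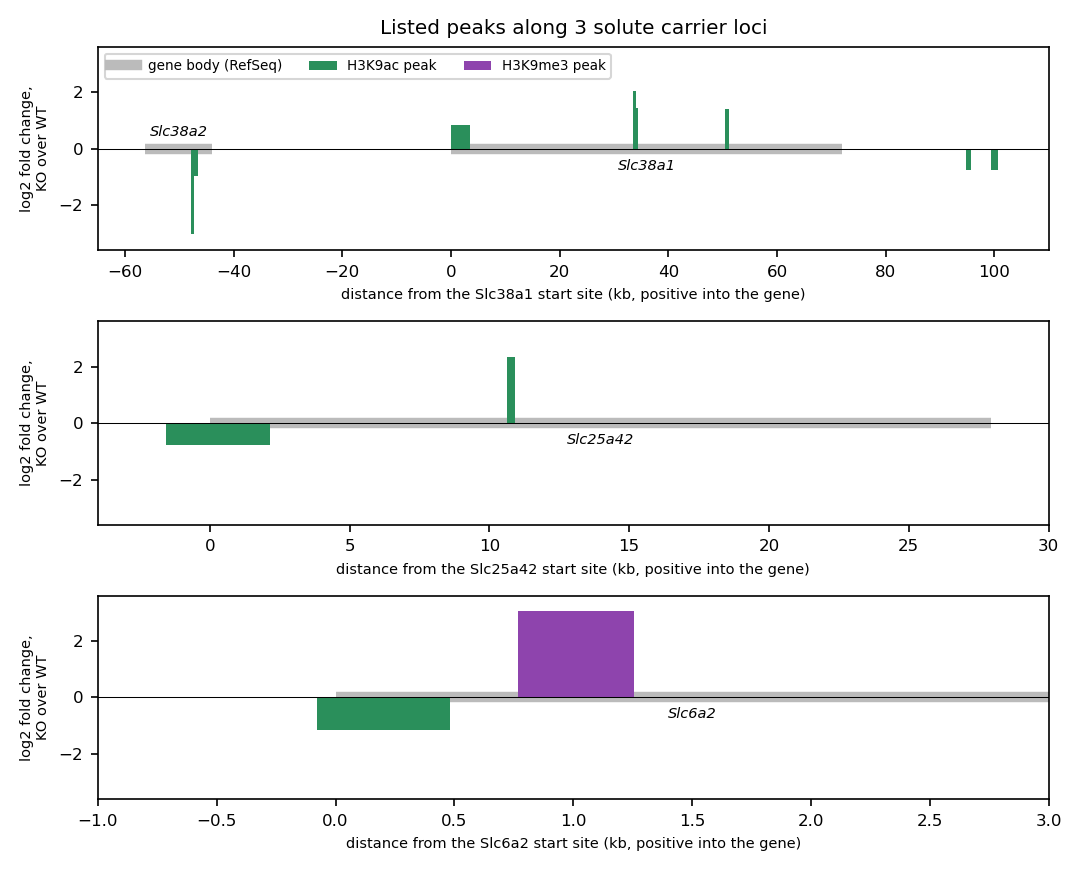
Listed peaks along 3 loci: Slc38a1 with Slc38a2, Slc25a42 and Slc6a2. The x axis is the distance from the start site in kb, positive into the gene, and bar height the deposited log2 fold change of CSE KO over CSE WT (green H3K9ac, purple H3K9me3, grey RefSeq gene body). In Slc38a1 peaks inside the gene are higher in CSE KO and peaks beyond its end lower, in Slc25a42 the start-site peak is lower and the intron peak higher, and in Slc6a2 the marks differ in direction. On chromosome 8, which holds Slc6a2, 85% of all listed H3K9ac and 11.4% of all listed H3K9me3 peaks were lower.

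Sodium- and chloride-dependent neurotransmitter carriers, family Slc6, had 7 H3K9ac peaks in 7 of 21 genes, where 18.1% of protein-coding genes had a listed peak. In CSE KO 1 peak was higher and 6 were lower, with a median log2 fold change of -0.93. Over all listed H3K9ac peaks 77.2% were lower and 16.6% passed the FDR. Slc6a8, the creatine carrier on the X chromosome, fell at chrX:73681718-73682440, with 11.4 reads in CSE KO and 39.9 in CSE WT in the authors' deposited table (3.51-fold, p = 0.00147, FDR 0.0412). No other Slc6 gene passed the FDR. Slc6a6, the taurine carrier, had 27.9 reads in CSE KO and 52.7 in CSE WT in the authors' deposited table (FDR 0.223). Start-site peaks of the dopamine carrier Slc6a3 and the noradrenaline carrier Slc6a2 held 39.4 and 25.6 reads in CSE KO against 75.1 and 57.3 in CSE WT in the authors' deposited table, with FDRs of 0.225 and 0.288. The proline carrier Slc6a7 held 84.4 reads in CSE KO and 163 in CSE WT at a peak past its end in the authors' deposited table (FDR 0.182).

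Mitochondrial carriers had 12 H3K9ac peaks in 9 of 47 genes, 2 higher and 10 lower in CSE KO, with 1 past the FDR. Over all listed H3K9ac peaks 77.2% were lower and 16.6% passed, and 18.1% of protein-coding genes had a listed peak. Slc25a48 fell at its start site, chr13:56438276-56438725, with 7.41 reads in CSE KO and 34.1 in CSE WT in the authors' deposited table (4.59-fold, p = 0.000433, FDR 0.0182). Slc25a42, which brings coenzyme A into the mitochondrion, held peaks of both directions. Its start-site peak, one of the strongest of the set, had 491 reads in CSE KO and 849 in CSE WT in the authors' deposited table (1.72-fold lower, FDR 0.244). In intron 1, 10.8 kb into the gene, a weak peak had 19 reads in CSE KO and 3.76 in CSE WT in the authors' deposited table (5.06-fold higher, FDR 0.134). Slc25a13, the aspartate-glutamate carrier citrin, had 175 reads in CSE KO and 350 in CSE WT at its start site in the authors' deposited table (2-fold lower, FDR 0.122). Slc25a30 had 12.4 reads in CSE KO and 43.7 in CSE WT in the authors' deposited table (FDR 0.114), and Slc25a35 was higher, at 29.9 against 11.1 in CSE WT (FDR 0.234).

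At start sites, the promoter sequences of 5 carriers with H3K9ac or H3K4me3 peaks are shown, to set the sequence beside the direction of the mark. They are the 250 bases before the RefSeq start, GRCm38.p6, read 5′ to 3′ on the gene's strand, and 76 of the 102 genes had a sequence. Slc25a13 (chr6:6217174-6217423, minus strand), Slc25a43 (chrX:36743382-36743631, plus) and Slc30a1 (chr1:191906531-191906780, plus) are the 3 carriers with a listed H3K4me3 peak. Slc25a48 (chr13:56438105-56438354, plus) and Slc35g2, of the nucleotide sugar carrier families (chr9:100571086-100571335, minus), had H3K9ac peaks over the start, lower and higher in CSE KO. Capitals mark matches on either strand to 6 short motifs. The first is the GC box, with the letters GGGCGG. The CCAAT box is spelled by its name, and the TATA motif searched was TATAA. An E-box was searched as CACGTG, which reads the same on both strands. The antioxidant element was searched as TGACNNNGC. For the metal response element the letters were TGCACNC, with TGCGCNC as its other form.
Slc25a13: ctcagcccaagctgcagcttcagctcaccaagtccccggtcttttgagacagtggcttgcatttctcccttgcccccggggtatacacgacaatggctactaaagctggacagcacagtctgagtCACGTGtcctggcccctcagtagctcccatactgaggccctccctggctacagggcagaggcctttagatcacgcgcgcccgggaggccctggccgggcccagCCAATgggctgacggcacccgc
Slc25a43: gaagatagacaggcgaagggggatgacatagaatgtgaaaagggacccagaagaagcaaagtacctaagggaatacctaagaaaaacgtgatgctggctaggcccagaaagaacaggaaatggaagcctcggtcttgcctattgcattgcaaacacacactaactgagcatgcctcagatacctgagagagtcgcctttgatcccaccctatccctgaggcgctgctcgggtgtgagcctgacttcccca
Slc30a1: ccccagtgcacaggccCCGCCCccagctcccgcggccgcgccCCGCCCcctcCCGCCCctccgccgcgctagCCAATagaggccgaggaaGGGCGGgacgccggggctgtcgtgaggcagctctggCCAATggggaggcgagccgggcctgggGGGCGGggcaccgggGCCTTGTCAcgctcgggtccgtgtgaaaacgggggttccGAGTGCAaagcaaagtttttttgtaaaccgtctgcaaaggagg
Slc25a48: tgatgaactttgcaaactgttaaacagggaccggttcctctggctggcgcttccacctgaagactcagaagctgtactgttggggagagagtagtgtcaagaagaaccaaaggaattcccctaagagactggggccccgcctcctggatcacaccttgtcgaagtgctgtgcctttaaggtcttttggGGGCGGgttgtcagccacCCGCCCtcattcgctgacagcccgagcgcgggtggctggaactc
Slc35g2: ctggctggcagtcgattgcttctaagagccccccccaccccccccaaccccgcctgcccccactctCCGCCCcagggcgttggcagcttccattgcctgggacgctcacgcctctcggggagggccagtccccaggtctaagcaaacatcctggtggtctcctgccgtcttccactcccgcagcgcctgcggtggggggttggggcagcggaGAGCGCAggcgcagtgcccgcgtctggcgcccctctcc

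The Slc30a1 window, with 71.2% G or C and 25 CpG, held 5 GC boxes, 2 CCAAT boxes, 1 antioxidant element and 1 metal response element. Slc30a1 is the zinc exporter of the plasma membrane. The Slc25a13 window, with 62.8% G or C and 11 CpG, held 1 E-box and 1 CCAAT box. Slc25a43 had 50.8% G or C, 6 CpG and no match. Slc25a48 held 2 GC boxes at 56.4% G or C, and Slc35g2 1 GC box and 1 metal response element at 70.8%. Of 32851 RefSeq promoter windows, 32.7% held a GC box, 33.8% a CCAAT box, 22.8% TATAA, 6.02% an E-box, 10.2% an antioxidant element and 21.4% a metal response element. Of the 388 windows of solute carriers, listed or not, these shares were 49.5%, 31.4%, 16.2%, 10.6%, 13.7% and 24%. A match is a run of letters and not a shown binding site.

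H3K4me3 was listed at 3 carriers only, all at their start sites, and the table gives no signal, fold or p, so the direction in CSE KO is not known. The peaks are chr6:6216226-6217448 at Slc25a13, chrX:36743795-36744602 at Slc25a43 and chr1:191905840-191908094 at Slc30a1. Among all listed H3K4me3 peaks 87.6% were at promoters. The H3K9ac peaks of Slc25a13 and Slc25a43 overlap these over 1223 and 808 bases. Both mitochondrial carriers had less H3K9ac in CSE KO, Slc25a43 with 249 reads in CSE KO and 419 in CSE WT in the authors' deposited table (1.68-fold lower, p = 0.0178, FDR 0.189).

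Nucleoside and nucleotide sugar carriers, families Slc28, Slc29 and Slc35, had 11 H3K9ac peaks in 7 of 35 genes. A listed peak was found for 18.1% of protein-coding genes. In CSE KO 1 peak was higher and 10 were lower, and 3 passed the FDR. Over all listed H3K9ac peaks 77.2% were lower and 16.6% passed, and the difference was not tested. Slc35e3 fell at chr10:117731304-117732478, 12.5 kb from its start site and past its end, with 37.5 reads in CSE KO and 89.9 in CSE WT in the authors' deposited table (2.39-fold, p = 0.000314, FDR 0.0143). Slc35f5 fell at the intergenic peak chr1:125606913-125607571, with 24.3 reads in CSE KO and 58.5 in CSE WT in the authors' deposited table (2.39-fold, FDR 0.0429). Slc29a3, a nucleoside carrier of lysosomes and mitochondria, had 4 listed peaks, all lower. The peak with the smallest p, chr10:60776762-60777174, had 6.41 reads in CSE KO and 31.6 in CSE WT in the authors' deposited table (4.92-fold, FDR 0.0325). The other 3 had 7.31 to 16.2 reads in CSE KO and 23.9 to 40.8 in CSE WT in the authors' deposited table, with FDRs of 0.16 to 0.28. In RefSeq all 4 lie outside Slc29a3 and inside its neighbour Unc5b, a netrin receptor gene, so they are peaks of Unc5b by position. Slc35f1 had 47.5 reads in CSE KO and 193 in CSE WT at its start site in the authors' deposited table (4.06-fold lower, FDR 0.117). The 1 higher peak was at the start of Slc35g2, with 118 reads in CSE KO and 61 in CSE WT in the authors' deposited table (FDR 0.19).

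Most listed H3K9ac peaks of sugar, metal and vitamin carriers were lower in CSE KO, as were 77.2% of all listed peaks. Most genes of these families had no listed peak, and 18.1% of all protein-coding genes had one. The FDR was passed by 16.6% of all listed peaks. Sugar carriers had 1 peak higher and 9 lower in CSE KO, from 7 of 34 genes, with a median log2 fold change of -1.23 and 0 past the FDR. Slc45a4 held 2.55 reads in CSE KO and 19 in CSE WT at a 3′ UTR peak in the authors' deposited table (7.46-fold lower, p = 0.00223, FDR 0.054), and in its intron 1 held 1 peak higher and 1 lower. Slc5a6, which takes up biotin and pantothenate, held 5.86 and 3.03 reads at promoter peaks in CSE KO against 29.7 and 16.7 in CSE WT in the authors' deposited table, with FDRs of 0.0573 and 0.129. Metal ion carriers had 7 peaks in 6 of 33 genes, all lower in CSE KO and 0 past the FDR. Slc39a13, a zinc carrier of the Golgi and of vesicles needed in connective tissue, had start-site peaks of 234 and 27.3 reads in CSE KO against 443 and 60.5 in CSE WT in the authors' deposited table, with FDRs of 0.0622 and 0.0874. Slc48a1, a heme carrier, had 96.3 reads in CSE KO and 163 in CSE WT in the authors' deposited table (FDR 0.131), and Slc41a3, of a magnesium carrier family, 4.32 against 19.3 in CSE WT (FDR 0.139). Peptide, vitamin and choline carriers had 6 peaks in 5 of 24 genes, all lower. Of these Slc44a2, a choline carrier-like protein, fell at chr9:21337629-21339053, its start site, with 120 reads in CSE KO and 261 in CSE WT in the authors' deposited table (2.17-fold, FDR 0.0498). Slc15a4, a peptide and histidine carrier of lysosomes, had 55.7 reads in CSE KO and 128 in CSE WT in the authors' deposited table (FDR 0.091). That Slc15a4 peak also overlaps the gene Glt1d1 in RefSeq.

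Families with a single listed H3K9ac peak held some of the smallest p-values. Slc10a1, the bile acid carrier of hepatocytes, fell at the intergenic peak chr12:80982494-80982886, 13.8 kb from its start site, with 1.47 reads in CSE KO and 21 in CSE WT in the authors' deposited table (14.2-fold, p = 0.000108, FDR 0.00659). Slc34a1, the phosphate carrier of the renal proximal tubule, fell at chr13:55404298-55405455, with 50.6 reads in CSE KO and 105 in CSE WT in the authors' deposited table (2.08-fold, FDR 0.0177). Both genes are known for other tissues than the aorta. Slc16a9, a monocarboxylate carrier family member, fell at its start site, chr10:70244488-70246044, with 164 reads in CSE KO and 425 in CSE WT in the authors' deposited table (2.58-fold, FDR 0.043), and was the strongest of the 16 called peaks. Slc17a9, which loads ATP into vesicles, had 138 reads in CSE KO and 73 in CSE WT at its start site in the authors' deposited table (1.89-fold higher, p = 0.00338, FDR 0.0701). The organic ion carriers had 1 peak higher and 2 lower, with Slc22a21, a carnitine carrier, at 171 reads in CSE KO and 103 in CSE WT in the authors' deposited table (FDR 0.297). The related carnitine carrier Slc22a5 had 5.5 reads in CSE KO and 19.6 in CSE WT in the authors' deposited table (FDR 0.194), and Slco3a1 60.5 against 121 in CSE WT (FDR 0.0739).

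**Figure D3:**
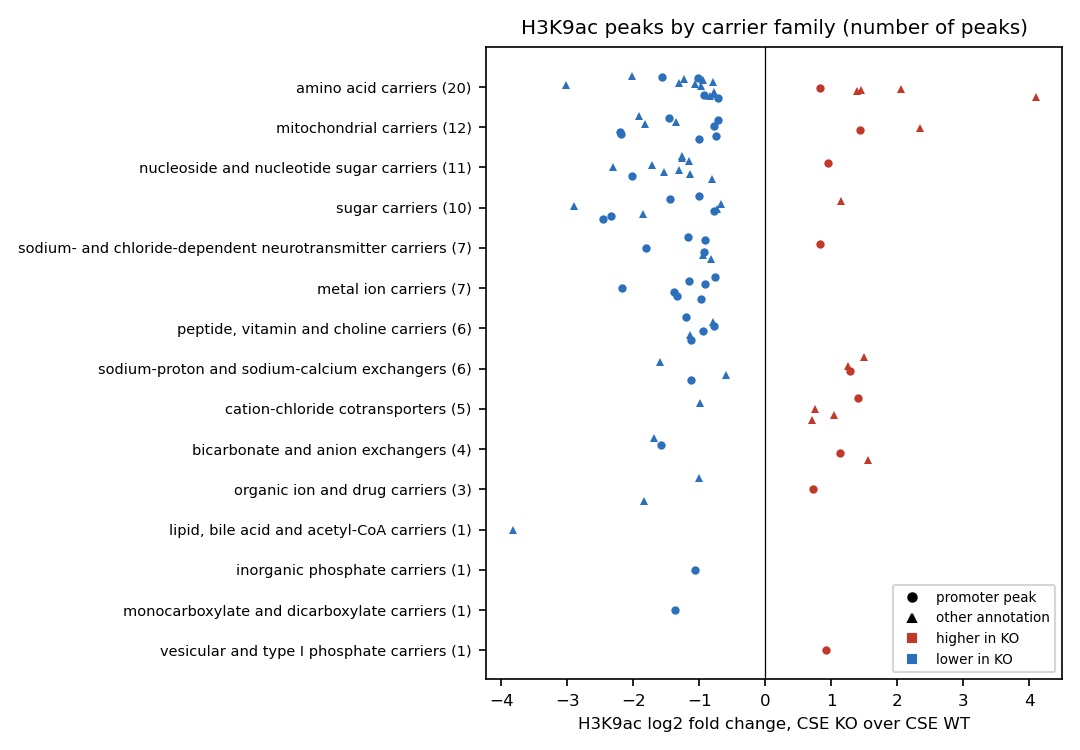
H3K9ac peaks of solute carriers by family, with the number of peaks in brackets. The x axis is the deposited log2 fold change of CSE KO over CSE WT, circles are promoter peaks, triangles peaks of other annotation, red higher and blue lower in CSE KO. Metal ion and peptide, vitamin and choline carriers have peaks on the lower side only, where 77.2% of all listed H3K9ac peaks lie. The cation-chloride cotransporters have 4 of 5 on the higher side, 3 of them from Slc12a8.

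By annotation, 45 H3K9ac carrier peaks, or 47.4%, were at promoters within 3 kb of a start site, against 44.9% of all listed peaks. Of the promoter peaks 9 were higher and 36 lower in CSE KO, or 80% lower, against 79.3% for all genes. Intron peaks divided evenly, with 9 higher and 10 lower in CSE KO, or 52.6% lower, against 74.5% of all listed intron peaks. Those 9 came from 6 genes, and 5 of them from Slc12a8 and Slc38a1. All 9 carrier peaks in a 3′ UTR were lower, as were 92.5% of all listed 3′ UTR peaks, and 3 of the 9 lie outside the carrier they are assigned to and inside another gene. Among the 95 peaks, 68 touch the body of their own gene in RefSeq, with 17 higher and 51 lower in CSE KO. The other 27 lie outside it, with 4 higher and 23 lower, 7 of them in another protein-coding gene and all 7 lower. Of the 16 called peaks 7 lie outside their carrier gene, 2 of these in another gene, Pla2g15 for Slc7a6 and Unc5b for Slc29a3.

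Of the 71 genes with H3K9ac peaks 56 had 1 and 15 had several. In 10 of those 15 all peaks were lower in CSE KO, in Slc12a8 all were higher, and 4 had both directions, among them Slc25a42, Slc38a1 and Slc45a4. By chromosome, chromosome 15 held the most carrier peaks, 15, with 5 higher and 10 lower in CSE KO, where 86.7% of all listed peaks were lower. Of those 5 higher peaks 4 were in Slc38a1. On chromosome 10 all 9 carrier peaks were lower and on the X chromosome all 4, against 89.4% and 93.4% of all listed peaks there. The share differed widely by chromosome, and was 37.2%, 52.5%, 59% and 36.8% of all listed peaks on chromosomes 4, 11, 16 and 18. Carrier peaks there were, in that order, 2, 3, 3 and 1 higher and 1, 2, 0 and 1 lower in CSE KO.

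How often carriers were listed was compared with other genes. RefSeq holds 388 protein-coding solute carriers, of which 71, or 18.3%, had a listed H3K9ac peak, against 18.1% of 21900 protein-coding genes. For H3K9me3 33 carriers, or 8.51%, had a listed peak, against 5.52% of protein-coding genes. For H3K4me3 the shares were 0.773% of carriers and 1.83% of protein-coding genes. No test was made of these differences, and a long gene has more room for a peak.

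Listed H3K9me3 peaks of carriers were weak and none passed the FDR, so the values below are a description of peaks listed at p under 0.05. In CSE KO 22 were higher and 21 lower, or 48.8% lower, against 39.0% of all listed H3K9me3 peaks. The FDR was 1 for all 43 in the authors' deposited table, the smallest p was 0.00405, and by the authors' test 0 of all 5374 listed peaks had an FDR under 0.05. No listed p was under 0.0001, so that count covers the listed peaks only and stronger peaks may be missing. Every one of the 43 had a log2 signal under 4, with a median of 6.41 reads over all libraries against 6.68 for all listed peaks. At 10 of them 1 genotype stood at the lowest value that the table holds for it, CSE WT at 7 and CSE KO at 3, so their fold depends on where that floor was set. Introns held 26 peaks, 15 higher and 11 lower in CSE KO, and intergenic stretches 11, 3 higher and 8 lower, where 38.7% and 41.9% of all listed peaks were lower. In RefSeq 32 of the 43 touch the body of their own gene, with 19 higher and 13 lower in CSE KO. The other 11 lie outside it, with 3 higher and 8 lower, 0 of them in another protein-coding gene. On chromosome 6, 1 carrier peak was higher and 6 were lower, and 72.4% of all peaks listed there were lower. Without chromosome 6 the share of lower carrier peaks was 41.7%, against 36% for all genes.

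The largest group with H3K9me3 peaks was the organic ion and drug carriers, Slc22 and Slco, with 12 peaks in 10 of 41 genes. A listed H3K9me3 peak was found for 5.52% of protein-coding genes. In CSE KO 6 peaks were higher and 6 lower, against 39.0% lower over all listed peaks, and these differences were not tested. Slco1a6, Slco1b2 and Slco1c1, organic anion carriers that lie together on chromosome 6, had 4 peaks over 592 kb, all lower in CSE KO. The 2 Slco1b2 peaks, both intergenic, held 1.89 and 1.56 reads in CSE KO against 12.4 and 10.6 in CSE WT in the authors' deposited table, with p of 0.023 and 0.0345. The Slco1c1 peak held 1.48 reads in CSE KO and 9.32 in CSE WT in the authors' deposited table (p = 0.039), and the Slco1a6 peak 1.39 against 10.2 in CSE WT (p = 0.0395). Other Slco genes went the other way, with Slco6d1 at 10.9 reads in CSE KO and 0.732 in CSE WT in the authors' deposited table (p = 0.0073). That CSE WT value is the table's lowest, and the Slco6d1 peak is intergenic, 56.1 kb from the start site.

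Slc6a11, a GABA carrier, had the smallest p of any H3K9me3 carrier peak, at its start site. The peak chr6:114131072-114131535 held 13.5 reads in CSE KO and 0.732 in CSE WT, the table's lowest value, in the authors' deposited table (p = 0.00405, FDR 1). Its promoter is printed because the peak reaches into it (chr6:114130991-114131240, plus strand, GRCm38.p6, capitals as above). The window had 71.2% G or C and 25 CpG, with 3 GC boxes, 2 metal response elements and 1 antioxidant element that overlaps a metal response element.
Slc6a11: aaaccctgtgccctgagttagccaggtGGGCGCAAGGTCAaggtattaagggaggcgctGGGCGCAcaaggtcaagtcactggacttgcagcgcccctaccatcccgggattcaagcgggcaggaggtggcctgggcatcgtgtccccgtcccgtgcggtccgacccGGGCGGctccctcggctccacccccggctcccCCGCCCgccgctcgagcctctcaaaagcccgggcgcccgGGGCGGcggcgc

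Potassium-dependent sodium-calcium exchangers, the Slc24 family, had 7 H3K9me3 peaks in 3 genes. Slc24a3, found in smooth muscle and brain, had 3 peaks in introns 1 and 2, all higher, with 8.82, 15.3 and 24.6 reads in CSE KO against 0.732, 2.03 and 2.91 in CSE WT in the authors' deposited table. The p-values in the authors' deposited table were 0.0128, 0.0374 and 0.0255, and each FDR was 1. Slc24a2 had a start-site peak of 23.3 reads in CSE KO and 2.68 in CSE WT in the authors' deposited table (p = 0.0268). Its other peaks, 5.63 and 87.3 kb into the gene, held 0.953 and 1.15 reads in CSE KO against 9.06 and 10.6 in CSE WT in the authors' deposited table (p = 0.0154 and 0.0237). Slc24a5, an exchanger of pigment cells, held 1.82 reads in CSE KO and 13.4 in CSE WT at an intergenic peak in the authors' deposited table (p = 0.0186). Slc16a7, a monocarboxylate carrier, likewise had both directions, with 19.6, 11.2 and 3.92 reads in CSE KO against 2.62, 1.55 and 23.6 in CSE WT in the authors' deposited table, all in introns.

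The remaining H3K9me3 peaks of smallest p were spread over families. Higher in CSE KO were Slc44a5 with 13.7 reads in CSE KO and 1.16 in CSE WT (p = 0.00519), and the zinc carrier of insulin granules Slc30a8 with 11.9 against 1.16 in CSE WT (p = 0.00731), in the authors' deposited table. The Slc30a8 peak is intergenic, 57.9 kb from the start site. The urate carrier Slc2a9 had 11.8 reads in CSE KO and 1.01 in CSE WT at a promoter peak in the authors' deposited table (p = 0.013). Slc27a6, a fatty acid carrier, had 8.57 and 21.7 reads in CSE KO against 0.732 and 3.07 in CSE WT in the authors' deposited table. The first of these peaks is in intron 3, and the second is intergenic, 116 kb from the start site. Lower in CSE KO were Slc15a5 with 1.56 reads in CSE KO and 15.7 in CSE WT (p = 0.00714), and the mitochondrial oxodicarboxylate carrier Slc25a21 with 1.48 against 14.7 in CSE WT (p = 0.00834), in the authors' deposited table. The myo-inositol carrier Slc2a13 had 1.08 reads in CSE KO and 9.45 in CSE WT in the authors' deposited table (p = 0.0186). In normalised reads these values are lower than those given above for the H3K9ac start-site peaks of Slc25a42 and Slc38a1, which were among the strongest. Depth and scaling are unknown for each mark, so the amounts of the marks cannot be compared.

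**Figure D4:**
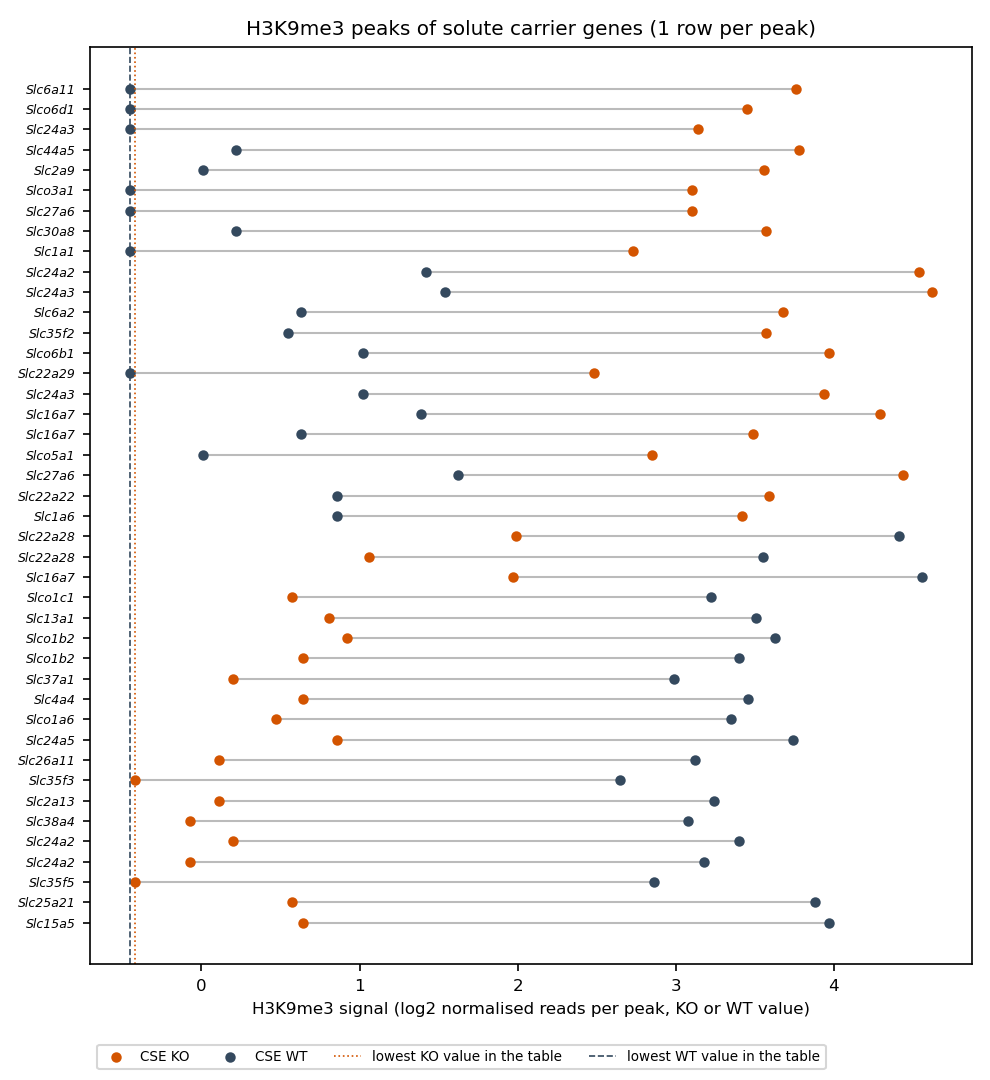
H3K9me3 peaks of solute carriers, 42 of the 43, 1 line per peak, sorted by log2 fold change. The x axis is the deposited value (log2 normalised reads per peak) in CSE KO (orange) and CSE WT (dark), joined by a line, and the vertical lines are the lowest values that the table holds for each genotype. Of the peaks drawn, CSE KO lies on its lowest value at 2 and CSE WT at 7.

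Few carriers were listed for more than 1 mark. H3K9ac and H3K9me3 shared 4 carrier genes, 5.63% of the 71 and 11.8% of the 34, where all listed genes shared 5.23% and 7.82%. In Slc6a2, the noradrenaline carrier, the peaks lay 287 bases apart at the start of the gene, with H3K9ac at 25.6 reads in CSE KO and 57.3 in CSE WT and H3K9me3 at 12.8 in CSE KO and 1.55 in CSE WT in the authors' deposited table (p = 0.0394 and 0.0221, FDR 0.288 and 1). Slc6a2 was thus lower for the active mark and higher for the silent one, with neither call past the FDR. Most listed peaks on its chromosome, 8, went the same ways, with 85% of H3K9ac and 11.4% of H3K9me3 peaks lower in CSE KO. In Slco3a1 the directions were the same as in Slc6a2, with the peaks 11.7 kb apart in intron 2, and H3K9me3 at 8.57 reads in CSE KO and 0.732 in CSE WT in the authors' deposited table (p = 0.0139). On its chromosome, 7, 91.3% of all listed H3K9ac and 26.6% of all listed H3K9me3 peaks were lower. In Slc35f5 the intergenic peaks lay 758 bases apart and both marks were lower, H3K9me3 with 0.747 reads in CSE KO and 7.26 in CSE WT in the authors' deposited table (p = 0.0158). In Slc38a4 the peaks were 83.5 kb apart and both lower, H3K9me3 with 0.953 reads in CSE KO and 8.46 in CSE WT in the authors' deposited table (p = 0.0194). H3K9ac and H3K4me3 shared Slc25a13 and Slc25a43, 2.82% of the 71 and 66.7% of the 3, where all listed genes shared 2.81% and 36.4%. H3K9me3 and H3K4me3 shared no carrier. All listed genes shared 28, which is 0.709% of those listed for H3K9me3 and 6.14% of those listed for H3K4me3. With 3 carriers listed for H3K4me3, the absence of a shared one cannot set carriers apart from other genes.

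Pumps of the Atp families, ABC transporters, aquaporins and Mfsd genes had 41 H3K9ac peaks in 32 genes, 12 higher and 29 lower in CSE KO, or 70.7% lower against 77.2% of all listed peaks, and 8 passed the FDR, which 16.6% of all listed peaks did. For H3K9me3 they had 11 peaks in 9 genes, 3 higher and 8 lower in CSE KO, or 72.7% lower against 39.0% of all listed peaks, and 0 passed the FDR. The difference from the solute carriers was not tested. Abcc5, an exporter of cyclic nucleotides, rose 2.53-fold at its promoter in the authors' deposited table (FDR 0.0286). Atp6v1c2, a subunit of the vacuolar proton pump, fell 2.87-fold in the authors' deposited table (FDR 0.00723), and Atp2b1, the plasma membrane calcium pump, 1.95-fold (FDR 0.0295). Of 33 partners and regulators of carriers, 12 had a listed H3K9ac peak, where 18.1% of protein-coding genes had one. By the peak of smallest p, 5 genes were higher and 7 lower, against 75.8% lower over all listed genes. The FDR was passed by 0 of their 18 peaks and by 16.6% of all listed H3K9ac peaks. These differences were not tested. The 4 partners of smallest p in each direction were as follows. Higher in CSE KO were Add1, the cytoskeletal protein adducin, at 3.16-fold and Tbc1d1, a regulator of glucose carrier traffic, at 3.14-fold in the authors' deposited table, with FDRs of 0.0767 and 0.12. Ireb2, an iron-sensing RNA-binding protein, was 2.71-fold and the stress factor Nfe2l2 1.62-fold higher in the authors' deposited table, with FDRs of 0.122 and 0.195. Lower in CSE KO were Stk39, a WNK pathway kinase that acts on Slc12 cotransporters, at 3.32-fold and Ank3, an ankyrin, at 1.80-fold in the authors' deposited table, with FDRs of 0.081 and 0.22. In the authors' deposited table the kinases Wnk1 and Sgk3 were lower by 1.67-fold and 1.87-fold (FDR 0.24 and 0.246). Of the 33, Stk39 alone had a listed H3K9me3 peak, where 5.52% of protein-coding genes had one. That peak stood at a log2 level of 3.28 in CSE KO and -0.45, the lowest level listed, in CSE WT in the authors' deposited table (p = 0.0133, FDR 1). Sgk1 alone had a listed H3K4me3 peak, where 1.83% of protein-coding genes had one.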

How the data were processed

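Histone marks were measured by ChIP-seq in primary aortic smooth muscle cells. Samples were grouped by genotype, mark and ChIP or input from the labels. CASAVA 1.4 and mm9 are listed, per the submitters' processing notes. The authors' aligner, peak caller, scaling and test were not given in the sources used here. Per the file headers, the authors deposited for each H3K9ac and H3K9me3 peak an FDR, a p-value, a log2 fold change, and log2 levels over KO, WT and all libraries. The columns of log2 level are read here as log2 mean normalised reads, and the fold change equalled KO minus WT within 0.01. The deposited H3K4me3 table has positions and annotation only. The tests planned for per-sample values were replaced by the authors' deposited comparison, as the tables hold no value per library.

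Peak positions are printed as the authors give them. The gene positions of the tables overlapped RefSeq GRCm38.p6 for 71 of 71, 34 of 34 and 3 of 3 carrier genes of the H3K9ac, H3K9me3 and H3K4me3 tables, and positions were used with that assembly. Carriers were found by symbol and sorted into 15 family lists. Counts, medians and distances were computed with Python 3.11.15, numpy 2.4.6, pandas 2.3.3 and scipy 1.17.1, and the counting was tested on simulated data. A peak is assigned to a gene by the authors' annotation, and its position inside a gene was checked against RefSeq. The members and lists were chosen with earlier results of these data known. Genes named are the 12 of smallest p per direction for H3K9ac and the 8 for H3K9me3, all for H3K4me3, those in 2 tables, with 3 or more peaks or both directions, and up to 4 examples per list. Others were named after their values were seen, and a few that the rule names are not reported here. Alternatives were other thresholds of p, FDR, fold and signal, promoter peaks, 1 call per gene, and leaving out chromosomes.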

Additional observations from a re-analysis of the deposited data

How the results depend on the processing

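The share of H3K9ac carrier peaks lower in CSE KO was 62.5% among the 8 with p under 0.001 (exact 95% binomial interval 24.5% to 91.5%), against 77.9% among all 95. Of all 878 listed H3K9ac peaks with p under 0.001, 74.9% were lower. The share of H3K9me3 carrier peaks lower in CSE KO was 0% among the 3 within 1 kb of a start site (interval 0% to 70.8%), against 48.8% among all 43. Of all 338 listed H3K9me3 peaks within 1 kb, 22.8% were lower. The H3K9me3 carrier share was 33.3% both at p under 0.01 and among promoter peaks, 6 peaks each, against 25.6% and 30.2% of all listed peaks so chosen. Counted by promoter peaks, carriers with a listed H3K9ac peak numbered 42, and within 1 kb of a start site 28, against 71. For H3K9me3 these counts were 5 and 3, against 34. Carriers listed for both H3K9ac and H3K9me3 numbered 1 by promoter peaks, against 4. These counts fall because fewer peaks enter. Taking each gene's peak of highest signal in place of that of smallest p turned 3 genes round, to a log2 fold change of -0.78 for Slc25a42 (H3K9ac), -2.6 for Slc16a7 and 3.12 for Slc24a2 (H3K9me3), and 102 gene values kept their direction. Including the shares of 33.3%, 32 shares and counts stayed within the exact 95% interval of the reported share or within 1.5 times the reported count. Alternatives added after the data were seen (without Slc7a6os, without the 3 peaks annotated to an intron or exon of another gene, without chromosome 6 or 15, without peaks at the lowest level) gave 76.4% to 80% for H3K9ac and 41.7% to 54.5% for H3K9me3. No paired analysis was possible because the tables hold no value per library, and leaving out each replicate was not run for the same reason. For H3K9me3, no carrier peak was left at an FDR under 0.05 or a p under 0.001. The scaffold genes Slc9a3r1 and Slc9a3r2 have no listed peak.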

Other observations

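The 388 RefSeq promoter windows of solute carriers, listed or not, had a median of 57.2% G or C and 9 CpG. Each window is the 250 bases before the start. They do not cover every carrier, as 76 of the 102 listed genes had a sequence. Over all 32851 RefSeq windows the medians were 52.4% and 6. An H3K9ac peak assigned to Slc44a4, a choline carrier-like gene, lies outside it and inside Ehmt2, which encodes an H3K9 methyltransferase. It held 26.5 reads in CSE KO and 50.9 in CSE WT in the authors' deposited table (1.92-fold lower, p = 0.0279, FDR 0.241). A peak assigned to the glucose carrier Slc2a8 lies likewise inside Garnl3, with 4.59 reads in CSE KO and 16.7 in CSE WT in the authors' deposited table (3.63-fold lower, FDR 0.282). Both genes were picked after their values were seen.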
